A study of Mus musculus with 6 samples.

Results

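Cytosolic ribosomal protein genes were taken from the deposited expression table by symbol. The rule took mouse symbols of the Rpl and Rps pattern together with Rplp0, Rplp1, Rplp2, Rpsa and Fau, and left out pseudogene symbols and the Rps6k kinases. It matched 85 symbols, 51 of the large subunit and 34 of the small subunit. Rpl10l, Rpl26, Rpl30 and Rpl34 were listed at 0 in all 6 libraries, which left 81 members of 24421 genes, 47 of the large and 34 of the small subunit. A filter on low values, a mean of at least 10 normalized counts over the 6 libraries, was passed by 79 members, 46 of the large and 33 of the small subunit. Members lie on 20 chromosomes, with 4 of them on X.

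The cells were sorted by flow cytometry from the cortex of mice at postnatal day 21. All animals carried the CD51-Flp transgene (CD51 is integrin alpha V) and had received AAV-GFAP-FSF-hM3D-mCherry, a viral vector in which a GFAP promoter drives the activating designer receptor hM3D once Flp has acted, so mCherry marked the cells that were sorted. In the CNO group (libraries CNO 1, CNO 2 and CNO 3) clozapine-N-oxide, the ligand of that receptor, was injected 2 times per day from day 7 to day 21, and the saline group (libraries saline 3, saline 4 and saline 5) received saline on the same schedule. No receptor-free animals given CNO were among the samples, so effects of the ligand and of the receptor cannot be told apart. The labels name no animal or pool behind a library.

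The cytosolic ribosome joins amino acids into protein in the order set by the mRNA. Its small subunit binds the mRNA and reads the codons, and its large subunit forms the peptide bond and passes the new chain out through a tunnel. Nearly every ribosomal protein is present in equal copy number in each ribosome, and many of the mRNAs begin with a short run of C and T at the transcription start, the terminal oligopyrimidine (TOP) motif, through which mTORC1 signalling controls their translation. In astrocytes, ribosomes are found in the soma and also in the fine processes, where local translation takes place.

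Transcript starts were not measured here, so a missing run around an annotated start does not show that an mRNA lacks the motif. Of the start sequences of 8 genes given below, 6 hold a run of at least 8 C or T bases and 2 do not. Each is the 30 bases around the annotated start, 15 on either side, from RefSeq on GRCm38.p6, written 5′ to 3′ on the gene's own strand, with the longest run of at least 8 in capitals.
Rpl7a: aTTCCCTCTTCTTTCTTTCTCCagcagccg
Rpl35: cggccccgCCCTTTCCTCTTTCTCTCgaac
Rplp2: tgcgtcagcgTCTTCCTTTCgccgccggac
Fau: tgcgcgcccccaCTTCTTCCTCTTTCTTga
Rps18: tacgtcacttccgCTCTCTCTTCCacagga
Rps27: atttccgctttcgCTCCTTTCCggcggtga
Rps16: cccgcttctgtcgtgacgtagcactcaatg
Rpsa: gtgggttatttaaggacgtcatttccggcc
They lie at chr2:26910792-26910821 on the plus strand (Rpl7a), chr2:39005117-39005146 on the minus strand (Rpl35), chr7:141447636-141447665 on the plus strand (Rplp2) and chr19:6057932-6057961 on the plus strand (Fau). The others lie at chr17:33955651-33955680 on the minus strand (Rps18), chr3:90213634-90213663 on the minus strand (Rps27), chr7:28350674-28350703 on the plus strand (Rps16) and chr9:120127751-120127780 on the plus strand (Rpsa). RefSeq start windows were matched for 64 of the 85 symbols, 76 windows in all. Such a run was found in 29 of them, 38.2%, against 12% of 32851 windows of all genes. The letters CTTTC on either strand were in 26.3% of the member windows and 7.57% of all windows. CCGGAAG on either strand of the 300 bases from 250 before to 50 after the start was in 35.5% of the member windows and 8.86% of all. Rpl7a, with a log2 fold change above 0 in the comparison below, has a run of 21, and Rpl35, with one below 0, has a run of 18.

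Whole reads were recovered from the deposited normalized counts, and library totals were 3908076 (CNO 1), 19224186 (CNO 2) and 17102657 (CNO 3) reads, against 17389282 (saline 3), 12010901 (saline 4) and 19052161 (saline 5). CNO 1 was by far the shallowest: 1 read there was worth 4.23 normalized counts, against 0.503 to 0.970 in the other libraries. The normalized counts summed to 14223762 to 16591952 in the CNO libraries and to 9588485 to 9857830 in the saline libraries, so the same gene can be higher by normalized count and lower as a share of reads. Fold changes and list medians are therefore given on both scales, and tests on normalized counts unless a share is named. All 20 astrocyte markers had reads in every library and took 1.17% to 4.08% of reads in CNO libraries and 2.25% to 3.29% in saline libraries. The 12 oligodendrocyte markers took more, 11.1% to 24.5% of reads in CNO libraries and 5.33% to 7.87% in saline libraries. Their summed normalized count ran from 1841020 to 3487360 in CNO and from 525544 to 754645 in saline libraries. By log2 fold change of normalized counts 8 of the 12 were above 0 and 4 below, and Mag and Aspa were at 0 in CNO 1. In 7 of 12 every CNO library was above every saline library. That held for 4.57% of all tested genes and for 25.6% of those with a mean of at least 3000 normalized counts. Mbp, the myelin basic protein gene, alone took 9.60% to 20.8% of reads in CNO and 4.58% to 6.30% in saline libraries. The 16 microglia and macrophage markers took 0.739% to 1.48% in CNO and 1.26% to 1.71% in saline libraries. The part of these cells and of depth in the results below was not tested, and in bulk RNA fewer cells of a type cannot be told apart from less RNA per cell.

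Most ribosomal protein genes had a higher mean log2 normalized count in CNO than in saline libraries, more so in the small subunit, but none passed the test. The log2 fold change, CNO over saline, was above 0 for 27 of 33 small subunit genes, with a median of 0.73, and for 36 of 46 large subunit genes, with a median of 0.50. Over all 13028 tested genes the median was -0.89, and 31.7% were above 0. That background moved with the processing: it was -0.078 with quantile scaling, -0.088 over genes with a read in every library, -0.11 in edgeR and 0.0044 in DESeq2. The large subunit median was above it by 1.38 here, by 0.055 with quantile scaling and by 0.61, 0.56 and 0.55 in the other 3, and the small subunit median by 1.62 here, by 0.36 with quantile scaling and by 0.81, 0.80 and 0.80 in the other 3. In 15 of 79 members every CNO library was above every saline library, 19.0%, against 4.57% of all tested genes, and in 2 members every CNO library was below, against 12.5%. By subunit, 9 small and 6 large subunit genes were higher without overlap, and the 2 lower ones, Rpl7l1 and Rpl35, belong to the large subunit. limma called 0 of 79 members at an adjusted p under 0.05, with a smallest adjusted p of 0.488, and 2 of all 13028 genes, both higher (0.0154%). At an unadjusted limma p under 0.05, 9 of 79 members were higher and 0 lower, against 297 (2.28%) and 944 (7.25%) of all 13028 genes. All genes differ from the members in level: 18 of 79 members had a mean under 1000 normalized counts, against 10789 of 13028 genes. Of the 2239 tested genes with a mean of at least 1000, 240 were higher and 16 lower at that p. The share of members higher at that p was thus close to that of these 2239 genes. Among those 2239 genes 16.4% were higher and 2.37% lower without overlap, and their median was 0.35. limma-voom, edgeR and DESeq2 on the recovered reads also called 0 members. The medians moved with single libraries: the large subunit median was 0.19 without CNO 2 and 0.30 without saline 3, and the small subunit median was 0.48 without saline 3 and 0.46 without saline 4.

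**Figure D1:**
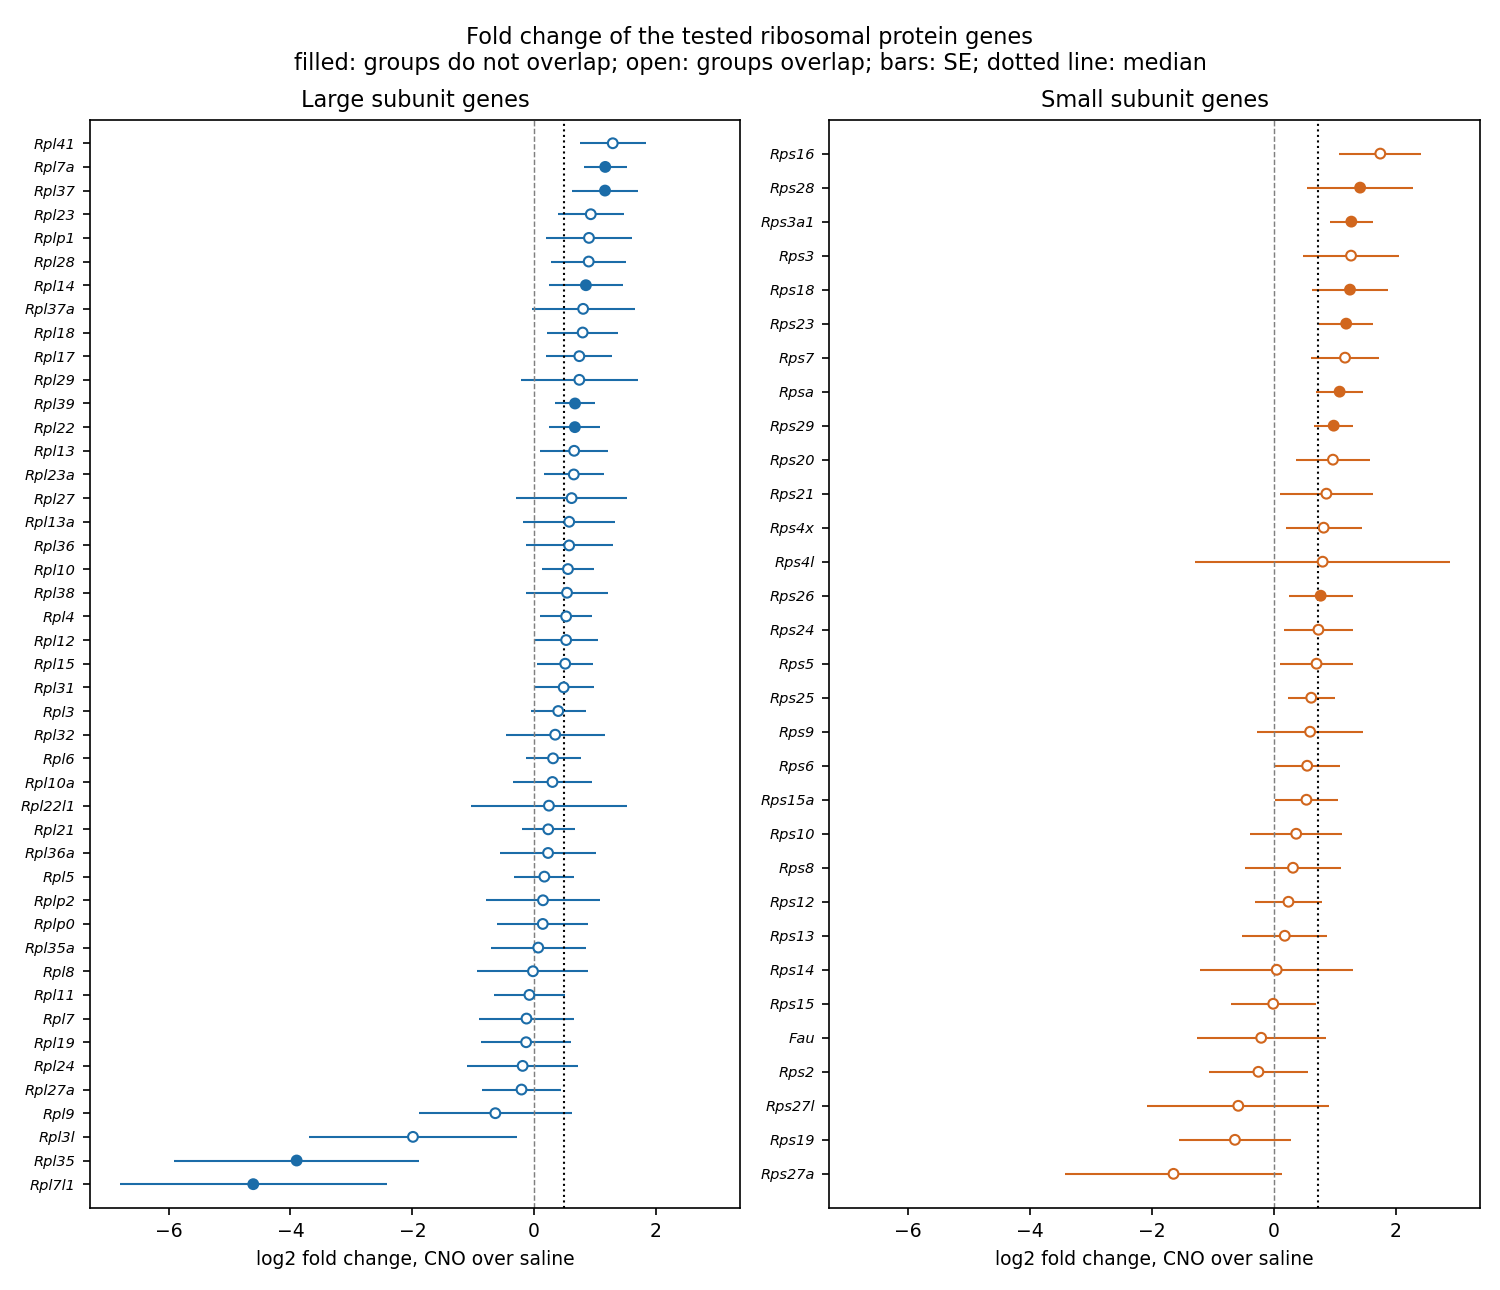
Log2 fold change (CNO over saline, x axis) of 76 of the 79 tested large and small subunit genes, with its standard error as a bar. Filled points are genes whose groups do not overlap, open points overlap, and the dotted line is the median of all tested genes of the subunit, 0.50 for the large and 0.73 for the small subunit.

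On a share-of-reads scale, with every library rescaled to one common total of reads, the large subunit had the opposite sign. The large subunit median was -0.20, with 11 of 46 genes above 0, and the small subunit median was 0.03, with 18 of 33 above 0. The median of all genes was -1.49 on this scale. Rps3a1 and Rpl7a were higher in every CNO library, 2 of 79 members (2.53%) against 1.13% of all genes. Rpl7l1, Rpl35, Rpl6 and Rps12 were lower in every CNO library, 4 of 79 (5.06%) against 21.3%. Of 2239 tested genes averaging 1000 or more normalized counts, 3.80% were higher and 13.8% lower without overlap on this scale. The median of those 2239 genes was -0.35, so the share of higher members was above that of all genes but not above that of these. At an unadjusted p under 0.05 on this scale limma gave 1 higher and 2 lower of 79 members. Of all 13028 genes it gave 60 higher (0.461%) and 1722 lower (13.2%). It called no member after adjustment, the smallest adjusted p of a member being 0.347. Of the same 2239 genes, 43 were higher and 176 lower at that unadjusted p. When Mbp reads were left out of the totals, the large subunit median was -0.04 and the small subunit median 0.20. The order of the subunits was the same on every one of these scales, and the direction of the large subunit was not.

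Large subunit genes took 0.648% of all reads in CNO 1, 1.32% in CNO 2 and 0.876% in CNO 3, against 0.804% in saline 3, 0.824% in saline 4 and 1.34% in saline 5. The groups overlapped throughout, with means of 0.948% ± 0.342 in CNO and 0.988% ± 0.301 in saline libraries (SD, n = 3 each). Leaving out CNO 1 or saline 5 turned the difference, from -0.0399 percentage points to 0.110 and 0.134. Small subunit genes took 0.665%, 0.971% and 1.02% of reads in CNO 1, CNO 2 and CNO 3, against 0.624%, 0.630% and 0.944% in saline 3, saline 4 and saline 5. Their means were 0.885% ± 0.192 in CNO and 0.733% ± 0.183 in saline libraries (SD, n = 3 each), and these groups overlapped too. The summed counts of the large subunit over those of the small subunit were 0.975, 1.36 and 0.860 in CNO 1, CNO 2 and CNO 3, against 1.29, 1.31 and 1.41 in saline 3, saline 4 and saline 5. CNO 2 was within the saline range and CNO 1 and CNO 3 were below it. Which libraries stood apart depended on the measure. The median log2 level of large minus small subunit genes, without paralogs, was 0.167, 0.165 and 0.404 in CNO 1, CNO 2 and CNO 3. It was 0.496, 0.376 and 0.291 in saline 3, saline 4 and saline 5, so there CNO 3 was within the saline range and CNO 1 and CNO 2 were below it.

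**Figure D2:**
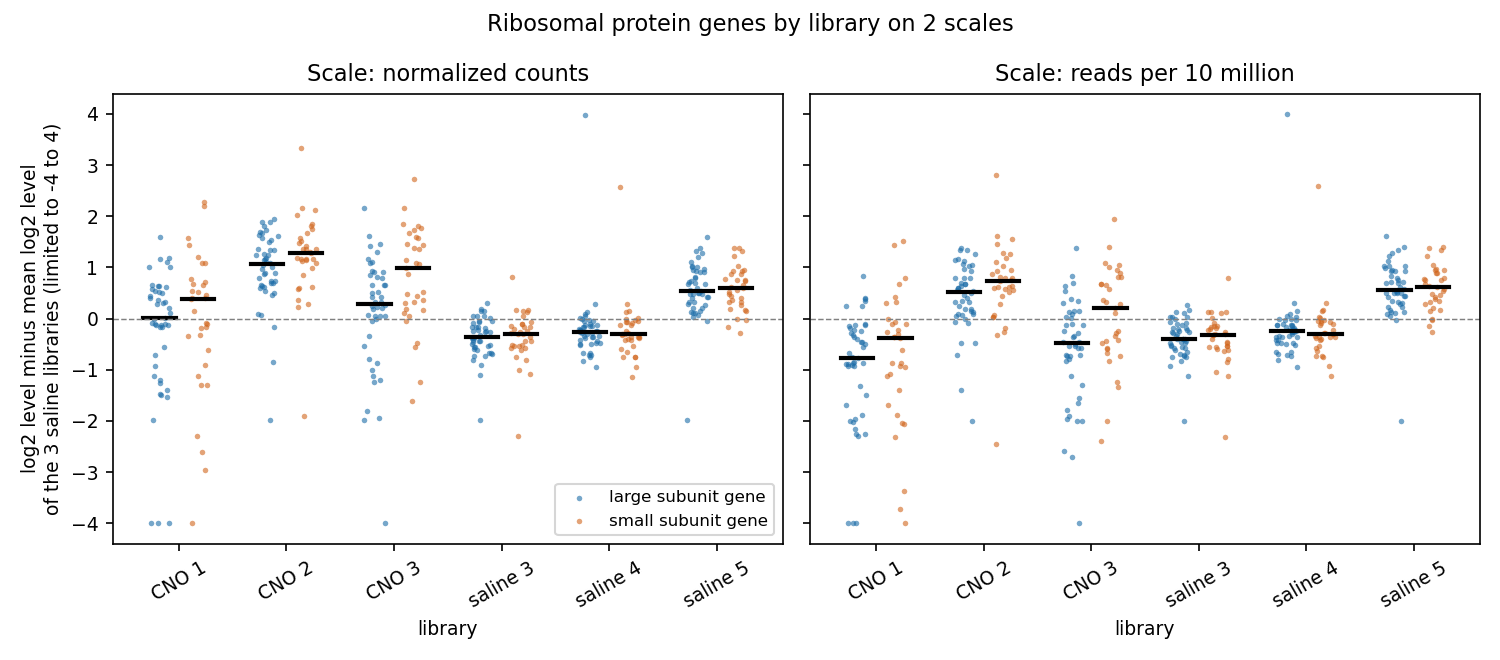
Log2 level of each tested member minus its mean log2 level in the 3 saline libraries (y axis, limited to -4 to 4, so points beyond are drawn at the limit), by library, as normalized counts and as shares of reads, with black bars at the medians. By normalized count the large and small subunit medians are 1.07 and 1.28 in CNO 2 and 0.54 and 0.61 in saline 5, the highest library of each group.

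Libraries of the same group differed widely. By normalized count, CNO 2 was the highest CNO library for 46 of 79 members and CNO 1 the lowest for 45, and saline 5 was the highest saline library for 67. The median SD of the members' log2 values was 0.78 among CNO and 0.57 among saline libraries. Over all tested genes it was 2.15 among CNO and 0.81 among saline libraries. For genes with a mean of at least 1000 normalized counts it was 0.90 and 0.41. The CNO SD was the larger for 59 of 79 members, against 10504 of 13028 tested genes (80.6%). Across members, as a description, Spearman's rho between library pairs was 0.761 to 0.815 within CNO, 0.872 to 0.931 within saline and 0.797 to 0.939 between the groups. These points share libraries, depth and gene length.

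The small subunit gene with the highest level was Rps29, a zinc-binding protein of the head, the part of the subunit that moves during translocation. It reached 35033 normalized counts per kilobase of exon, followed among all members by Rps3a1 at 10771 and, in the large subunit, Rpl39 at 5824. Rps29 had 26911, 23824 and 47460.2 normalized counts in CNO 1, CNO 2 and CNO 3, against 17343, 15972 and 14157 in saline 3, saline 4 and saline 5. Every CNO library was above every saline library, and its log2 fold change was 0.99 ± 0.32 by normalized count (SE, limma adjusted p = 0.488) and 0.29 as a share of reads. Rps29 alone held 12.4%, 7.31% and 15.1% of all member counts in CNO 1, CNO 2 and CNO 3, against 12.3%, 11.4% and 6.48% in saline 3, saline 4 and saline 5. The share overlapped between groups.

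Rps3a1, a protein of the subunit body near the mRNA exit, had 13756, 10806 and 20579 normalized counts in CNO 1, CNO 2 and CNO 3, against 6189.9, 5866 and 5945 in saline 3, saline 4 and saline 5. The saline libraries lay close together and all CNO libraries above them, on the share scale as well. The log2 fold change was 1.27 ± 0.35 by normalized count (limma adjusted p = 0.488) and 0.57 as a share of reads (limma adjusted p = 0.41). Rpsa, which also acts as a laminin receptor precursor, had 9521, 16178 and 22990.4 in CNO 1, CNO 2 and CNO 3, against 6121, 6764 and 9005 in saline 3, saline 4 and saline 5. Its groups did not overlap, although CNO 1 and saline 5 were near each other (log2 fold change 1.08 ± 0.39, limma adjusted p = 0.488, and 0.38 as a share of reads).

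Small subunit genes whose CNO libraries all lay above the saline libraries also included Rps23, Rps18, Rps28 and Rps26, and 2 of them are given here, chosen after their values were seen. Rps23, at the decoding centre, had 6343, 6491 and 7657 normalized counts in CNO 1, CNO 2 and CNO 3, against 2665, 1983 and 5019 in saline 3, saline 4 and saline 5. Rps18, a head protein whose start sequence is shown above, had 2138, 2473 and 10632 in CNO 1, CNO 2 and CNO 3, against 1457, 1546 and 1844 in saline 3, saline 4 and saline 5. In Rps18, CNO 3 stood far above the other libraries, and in Rps23 the CNO values were nearer to each other.

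The small subunit head list had 14 tested genes, 11 above 0, with a median of 0.84 by normalized count and 0.14 as a share of reads, and limma called 0. Rps16, whose tail reaches the decoding site, had 4074, 3967 and 1621 normalized counts in CNO 1, CNO 2 and CNO 3, against 594, 563 and 2055 in saline 3, saline 4 and saline 5. Saline 5 was above CNO 3, so the groups overlapped. Rps3, at the mRNA entry and also known in DNA repair, had 625, 3028 and 2533 in CNO 1, CNO 2 and CNO 3, against 328, 779 and 1337 in saline 3, saline 4 and saline 5. Only CNO 1 lay within the saline range. Rps6, the substrate of the S6 kinases, had 2637, 5275 and 2976 in CNO 1, CNO 2 and CNO 3, against 1659.9, 1837 and 4328 in saline 3, saline 4 and saline 5. Its highest saline library was above 2 CNO libraries.

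Some small subunit genes were low in 1 library. Rps27a, made as a fusion with ubiquitin, had 8.45, 4236 and 1353 normalized counts in CNO 1, CNO 2 and CNO 3, against 771, 699 and 3063 in saline 3, saline 4 and saline 5. The CNO 1 value was 2 reads, where CNO 2 had 5725, and the log2 fold change of -1.64 ± 1.79 (limma adjusted p = 0.732, and -2.31 as a share of reads) was 1.02 without CNO 1. Rps19, a head protein and the first gene found mutated in the anaemia of Diamond and Blackfan, had 156, 2429 and 1257 in CNO 1, CNO 2 and CNO 3, against 1355, 988 and 1345 in saline 3, saline 4 and saline 5. CNO 1 was again the low library, and the log2 fold change of -0.64 ± 0.93 (limma adjusted p = 0.793, and -1.33 as a share of reads) was 0.52 without it. Rps2, near the mRNA entry, had 651, 1822 and 264 in CNO 1, CNO 2 and CNO 3, against 747, 664 and 1066 in saline 3, saline 4 and saline 5. Its CNO values lay on both sides of the saline range (log2 fold change -0.25 ± 0.81, limma adjusted p = 0.915, and -0.95 as a share of reads), and without CNO 3 the fold change was 0.43.

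**Figure D3:**
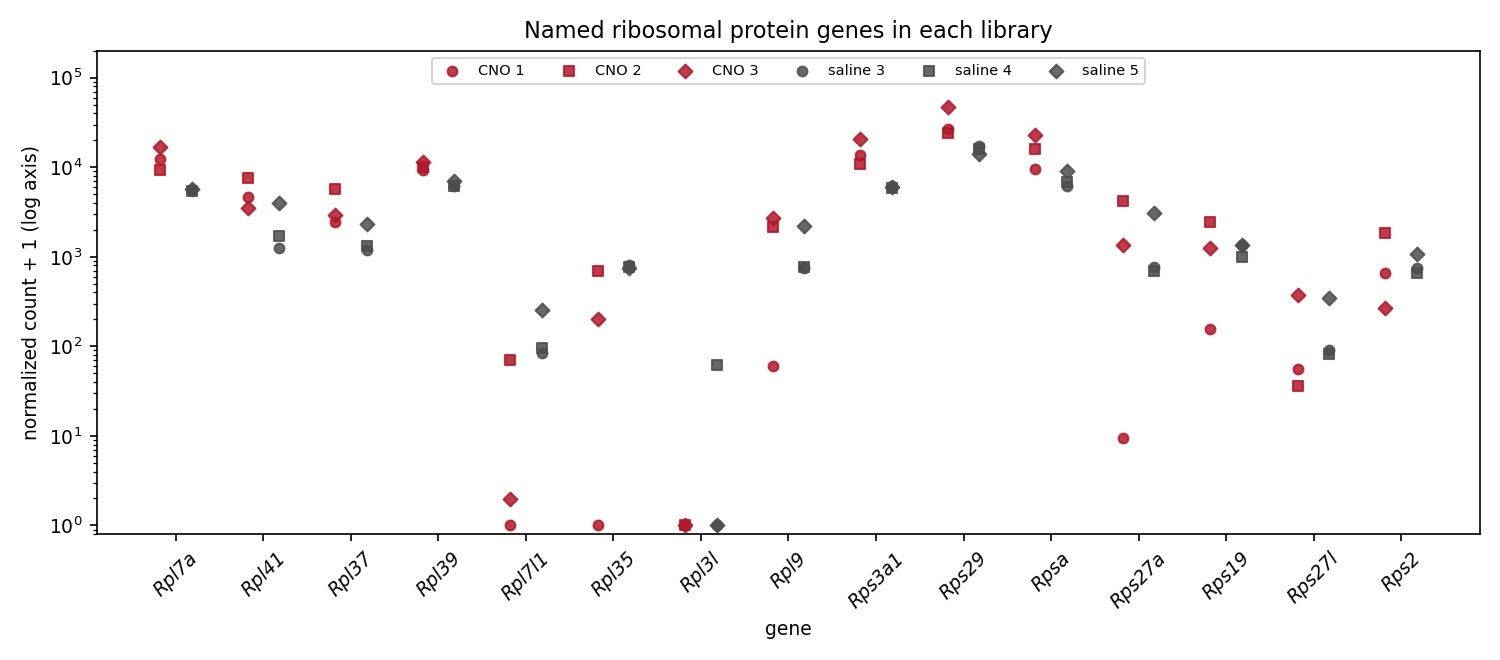
Normalized count + 1 (log axis) of 15 members with the smallest p per subunit and direction, in each library. Circles, squares and diamonds are the libraries of each group in the order of their numbers, CNO beside saline. Rpl7a and Rps3a1 have saline values close together with every CNO value above them, and Rpl35 and Rps27a have a CNO 1 value of 0 and 8.45 normalized counts.

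In the large subunit, Rpl7a, a protein of the outer surface, had 12378, 9227 and 16879 normalized counts in CNO 1, CNO 2 and CNO 3, against 5589.6, 5378 and 5669 in saline 3, saline 4 and saline 5. Every CNO library was above every saline library, also as a share of reads. The log2 fold change was 1.17 ± 0.35 by normalized count (limma adjusted p = 0.488) and 0.47 as a share of reads (limma adjusted p = 0.48). Rpl41, the shortest ribosomal protein, had 4649, 7632 and 3543 in CNO 1, CNO 2 and CNO 3, against 1264, 1694 and 4014 in saline 3, saline 4 and saline 5. Saline 5 was above CNO 3 (log2 fold change 1.29 ± 0.54, limma adjusted p = 0.507, and 0.59 as a share of reads). Rpl37, a zinc-binding protein, had 2438, 5711 and 2921 in CNO 1, CNO 2 and CNO 3, against 1179, 1319 and 2328 in saline 3, saline 4 and saline 5. The groups were separate by a narrow margin between CNO 1 and saline 5 (log2 fold change 1.16 ± 0.54, limma adjusted p = 0.53, and 0.46 as a share of reads).

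Large subunit genes with every CNO library above every saline library also included Rpl39, Rpl22 and Rpl14.

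The tunnel exit list had 6 tested genes of 7, 4 above 0, with a median of 0.57 by normalized count and -0.13 as a share of reads. Rpl39, which lines the tunnel near its exit, had 9399, 10095 and 11297 normalized counts in CNO 1, CNO 2 and CNO 3, against 6120.2, 6252 and 6945 in saline 3, saline 4 and saline 5. Both groups were tight and separate by normalized count (log2 fold change 0.67 ± 0.33, limma adjusted p = 0.55), but the fold change was -0.03 as a share of reads. Rpl35, at the rim of the exit, had 0, 686 and 199.8 in CNO 1, CNO 2 and CNO 3, against 802, 764 and 744 in saline 3, saline 4 and saline 5. All saline libraries were above all CNO libraries, with a log2 fold change of -3.90 ± 2.01 (limma adjusted p = 0.555) and -4.36 as a share of reads. The size rested largely on CNO 1, since the log2 fold change by normalized count was -1.05 without it. The 0 in CNO 1 allows up to 12.7 normalized counts, the worth of 3 reads there. Rpl9, beside the factor-binding site, had 59.2, 2139 and 2712 in CNO 1, CNO 2 and CNO 3, against 758, 777 and 2225 in saline 3, saline 4 and saline 5. CNO 1 was the low library, and the log2 fold change of -0.64 ± 1.26 (limma adjusted p = 0.852, and -1.33 as a share of reads) was 1.14 without it.

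The P stalk recruits the elongation factors to the large subunit. Its 4 genes were all above 0 by normalized count, with a median of 0.33, and the median was -0.36 as a share of reads. Rplp1, a stalk tip protein, had 2028, 5031 and 2500.1 normalized counts in CNO 1, CNO 2 and CNO 3, against 845, 969 and 4793 in saline 3, saline 4 and saline 5. Rplp2, its partner, had 262, 2846 and 735 in CNO 1, CNO 2 and CNO 3, against 574, 440.2 and 1607 in saline 3, saline 4 and saline 5. In both, CNO 2 and saline 5 were the high libraries and the groups overlapped. Rplp0, the stalk base, had 1297, 1685 and 450.1 in CNO 1, CNO 2 and CNO 3, against 762, 568 and 1695 in saline 3, saline 4 and saline 5. Rpl12, also at the base, had 1529.8, 3321 and 2589 in CNO 1, CNO 2 and CNO 3, against 1228, 2009.9 and 1788 in saline 3, saline 4 and saline 5. Neither was separate between groups.

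Rpl5 and Rpl11 form the 5S particle with 5S rRNA, and when free they bind and inhibit Mdm2. Their median was 0.045 by normalized count and -0.66 as a share of reads. Rpl5 had 2316, 4200.4 and 2506 normalized counts in CNO 1, CNO 2 and CNO 3, against 1919, 2362 and 3797 in saline 3, saline 4 and saline 5. Rpl11 had 938, 2828 and 2741 in CNO 1, CNO 2 and CNO 3, against 2340.1, 1429 and 2559 in saline 3, saline 4 and saline 5. The groups overlapped for both. Rpl3, at the peptidyl transferase centre, had 3051, 5249 and 3243 in CNO 1, CNO 2 and CNO 3, against 3167, 2100.3 and 3432 in saline 3, saline 4 and saline 5. Rpl10, added late in subunit assembly, had 5629, 14312 and 8739 in CNO 1, CNO 2 and CNO 3, against 4694, 6259 and 7559 in saline 3, saline 4 and saline 5. Both overlapped, with CNO 2 the highest library.

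Among the paralogs, copies whose use varies between tissues, the 5 tested members of the symbol rule were low. Rps4l, kept by its symbol, is annotated in GENCODE M21 as a transcribed processed pseudogene. The list, which also holds Rpl36al outside that rule, had 2 of 6 tested genes above 0, with a median of -0.38 by normalized count and -1.07 as a share of reads. Rpl36al was not low: it had 718, 637 and 403 normalized counts in CNO 1, CNO 2 and CNO 3, against 582, 451 and 1002 in saline 3, saline 4 and saline 5, and Rpl36a had 714, 940.4 and 374 in CNO 1, CNO 2 and CNO 3, against 451, 339 and 1023 in saline 3, saline 4 and saline 5. The groups overlapped for both. Per kilobase of exon, Rpl3l had 6.25 normalized counts, Rps4l 16, Rpl7l1 23.9, Rpl22l1 111 and Rps27l 200.4, against 1063 for Rpl3, 616 for Rpl7 and 1178 for Rpl22. Rpl7l1 had the lowest fold change of all members: it had 0, 69.5 and 0.97 normalized counts in CNO 1, CNO 2 and CNO 3, against 83.3, 93.6 and 253 in saline 3, saline 4 and saline 5. The groups did not overlap (log2 fold change -4.61 ± 2.20, limma adjusted p = 0.543, and -4.93 as a share of reads). By normalized count the fold change was -3.42 without CNO 1 and -2.58 in DESeq2. The parent gene Rpl7 had 482, 3915 and 1090.4 in CNO 1, CNO 2 and CNO 3, against 950.1, 1261 and 2233 in saline 3, saline 4 and saline 5, which overlapped. Rps27l, a p53 target, had 54.9, 35.5 and 376 in CNO 1, CNO 2 and CNO 3, against 90.7, 80.8 and 343 in saline 3, saline 4 and saline 5. A single high library stood in each group (log2 fold change -0.58 ± 1.496, limma adjusted p = 0.891, and -1.27 as a share of reads), and the fold change was 0.08 without CNO 2. Rpl3l, known from muscle, was listed at 0 in 5 libraries and had 61.6 in saline 4, so its log2 fold change of -1.99 ± 1.71 (limma adjusted p = 0.673, and -2.01 as a share of reads) was 0 without that library.

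Several proteins of every ribosome were listed at or near 0. Rpl26, Rpl30 and Rpl34 had no read in any library, and Rps27 had 1 read, in saline 5. Rpl39l, a testis form, had 1 read, in CNO 2. In the GENCODE M21 annotation Rps4l has no coding transcript to compare and was counted at 0% shared. Of the 81 members, 77 share 50-base stretches of their longest coding transcript with other annotated genes, with a median of 41.8% of stretches shared. That share was 47.4% for Rpl26, 29.7% for Rpl30, 6.93% for Rpl34 and 63.1% for Rps27, where the sharing gene with the most stretches was Rps27rt. How the deposited counting treated reads that match several genes is not stated in the labels, so member levels are uncertain to that extent, and its part in these zeros was not tested. Among tested members, 4 were at 0 in CNO 1 (Rpl35, Rpl3l, Rpl7l1 and Rps4l), and the median member had 307 reads there, against 1234 to 4093 in the other libraries.

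Fold change went with level among the members and among all genes. Spearman's rho of the log2 fold change with mean level was 0.44 over 79 members and 0.50 over 13028 genes, against -0.19 with exon length and 0.03 with the share of 50-base stretches found in other genes. These are descriptions over genes that share the same 6 libraries. Members with a mean of at least 3000 normalized counts had a median of 0.66, and 9 of 21 were higher without overlap, 42.9%, against 25.6% of all genes of that level, whose median was 0.50. Between 1000 and 3000 the members had a median of 0.56, against 0.29 for all genes of that level. In that class 31 of 40 members were above 0, against 64.5% of all genes. Of the 40, 5 were higher without overlap, 12.5%, against 13.1% of all genes. Under 1000, the 18 members had a median of 0.20 and all genes -1.36. In the middle class the share without overlap was close to that of other genes of like level, while the median was higher for the members.

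**Figure D4:**
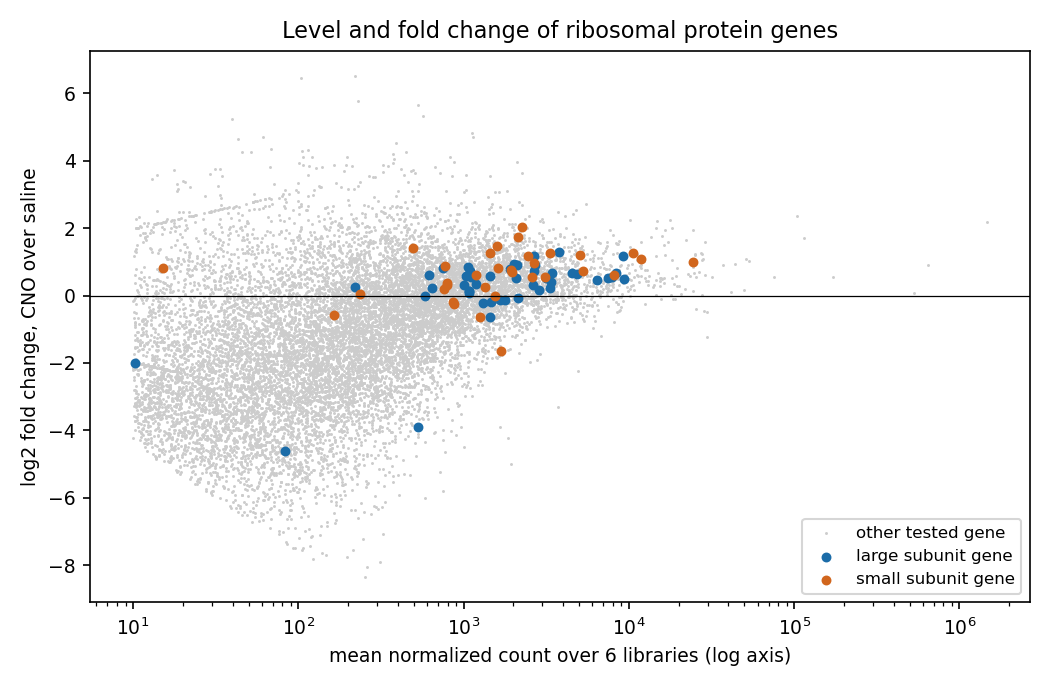
Log2 fold change (CNO over saline, y axis) against the mean normalized count over the 6 libraries (log x axis), with large and small subunit genes marked apart. Members with higher means lie higher, with a median of 0.20 under 1000 and 0.66 at or above 3000 normalized counts.

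Of genes that serve the ribosome, limma called 0 in each list. Translation factors had a median of 0.23, with 24 of 40 above 0, and -0.47 as a share of reads. The median mean level of that list was 1380 normalized counts. All tested genes with a mean between 1000 and 3000 had a median of 0.29, with 64.5% above 0, and -0.41 as a share of reads. Eef1a1, which delivers aminoacyl-tRNA, had 22402, 34583 and 33532 normalized counts in CNO 1, CNO 2 and CNO 3, against 16085, 15042 and 26394 in saline 3, saline 4 and saline 5. Saline 5 lay above CNO 1. Ribosome biogenesis factors had a median of -1.56, with 9 of 41 above 0, and -2.05 as a share of reads, and the median mean level of that list was 153 normalized counts. Ncl, nucleolin, had 7074, 7554 and 8302 in CNO 1, CNO 2 and CNO 3, against 5478, 6184 and 4943 in saline 3, saline 4 and saline 5, and Gar1, a component of the pseudouridylation complex, was listed at 0 in the CNO libraries and had 61.2, 13.6 and 39.8 in saline 3, saline 4 and saline 5. By normalized count the direction thus differed within that list. As a share of reads the log2 fold change was below 0 for both, -0.23 for Ncl and -5.10 for Gar1. Genes of mTORC1 and TOP mRNA control had a median of -0.80, with 7 of 25 above 0, and -1.18 as a share of reads. Mtor, the kinase itself, had 824, 383 and 25.2 in CNO 1, CNO 2 and CNO 3, against 1932, 926 and 957 in saline 3, saline 4 and saline 5. Every CNO library was below every saline library. The snoRNA host genes, whose transcripts also begin with TOP motifs, had a median of -2.29, with 1 of 6 above 0, and -2.60 as a share of reads. Mitochondrial ribosomal proteins, which serve a separate ribosome, had a median of -1.07, with 19 of 77 above 0, and -1.53 as a share of reads. The median mean level was 419 normalized counts in the mTORC1 list, 98.1 in the snoRNA host list and 108 in the mitochondrial list. All tested genes with a mean under 1000 had a median of -1.36, with 24.1% above 0, and -1.89 as a share of reads. Of the genes tied to the human anaemia of Diamond and Blackfan, 14 of 17 were above 0, with a median of 0.54 by normalized count and -0.16 as a share of reads. This was close to all 79 tested members, with 63 above 0 and medians of 0.55 by normalized count and -0.15 as a share of reads. Of the ubiquitin and ubiquitin-like fusions 1 of 3 was above 0, with a median of -0.20 by normalized count and -0.90 as a share of reads. Fau had 106, 2267 and 728 in CNO 1, CNO 2 and CNO 3, against 381, 709 and 994 in saline 3, saline 4 and saline 5. The groups overlapped.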

How the data were processed

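RNA of sorted cells was sequenced in 6 libraries, from 10 ng of total RNA each per the labels' protocols, and the deposited table lists 24421 genes. Its values are a signal that the authors had made by dividing read counts per gene by 1 size factor per library. Every value was a whole multiple of 1 step per library within a tolerance of 1e-06 reads, so 100% of the values gave whole reads. All columns matched a library and 0 were left over. The submitters' processing notes list STAR 2.5.0a, DESeq2 1.20.0, Trimmomatic 0.4, MultiQC 0.9 and FastQC 0.10.1, and the build mm10, without saying what each was used for. Counter, annotation and strand setting were not given in the sources used here.

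Members were the symbols of the Rpl and Rps pattern with Rplp0, Rplp1, Rplp2, Rpsa and Fau, without pseudogene symbols and Rps6k kinases. Members and lists were chosen with earlier results of these data known. limma 3.58.1 in R 4.3.3 was run on log2(normalized count + 1) for genes with a mean of at least 10, with a variance trend, 2-sided tests and Benjamini-Hochberg adjustment at 0.05 over all tested genes. Fold changes are on that scale. The added 1 shrinks changes of low genes, but a single library at or near 0 can enlarge the fold change. Rpl35, for example, was -3.90 here, -1.44 in edgeR and -1.38 in DESeq2. The method was tested on simulated data. Alternatives were a pseudocount of 0.5 or 8, TMM or quantile scaling, 3 other filters, weights per library, the trend switched off, limma-voom, edgeR 4.0.16 and DESeq2 1.42.0 on recovered reads, other denominators and each library left out. Shares of reads (each library rescaled to one common total, with and without Mbp) were added after the data were seen. Named members were, per subunit, up to 4 with the smallest p in each direction and the 3 highest and 3 lowest by mean level, the highest and lowest fold change, the paralogs with their parent genes, the stalk, 5S and ubiquitin fusion genes and 7 others, and up to 3 genes per direction from each companion list. Some eligible genes are given by counts only, and a few results are not reported here. Exon lengths and shared 50-base stretches came from GENCODE M21 on GRCm38, the assembly of mm10, and start sequences from RefSeq on GRCm38.p6. The largest 95% Wilson interval for the share of reads in all members was 1.30% to 1.32%, in CNO 1. Intervals and floors cover counting error only, since the reads carry no molecular identifiers. Whether libraries came from separate animals or pools is not stated, so a p-value here reflects only how much these libraries varied. Figures were drawn with matplotlib 3.10.9.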

Additional observations from a re-analysis of the deposited data

How the results depend on the processing

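limma called 2 genes, both higher. It called 0 with a mean filter of 50, with a read required in every library, with quantile scaling, without the variance trend, as shares of all reads with or without Mbp, and without any 1 library (0 to 0). edgeR called 0, array weights 11, limma-voom 16 and DESeq2 242 (66 higher, 176 lower), and members were called in none of these. The large subunit median was -0.023 with quantile scaling, -0.20 as shares of reads and -0.036 with Mbp also left out, and 0.19 (without CNO 2) to 0.72 (without CNO 1) with a library left out. The small subunit median was 0.29 with quantile scaling, 0.035 as shares of reads and 0.46 (without saline 4) to 1.02 (without CNO 1) with a library left out. The difference in the large subunit share of reads, -0.0399 points, was 0.0982 without Mbp, 0.127 without oligodendrocyte markers and -0.226 to 0.134 with a library left out. Of 316 single-gene values under alternatives, 22 turned direction and 1, Rpl3l without saline 4, was 0. With all libraries kept, those that turned were Rpl39 with quantile scaling (-0.048) and as a share of reads (-0.030); Rpl3l with quantile scaling (0.37); Rps27l with quantile scaling (0.33); Rpl9 with array weights (0.26), voom (0.31), edgeR (0.32) and DESeq2 (0.39); Rps19 with array weights (0.020), voom (0.013) and DESeq2 (0.062); Rps2 with array weights (0.078), edgeR (0.041) and DESeq2 (0.15); Rps27a with edgeR (0.24) and DESeq2 (0.31). With a library left out, the log2 fold changes ran from -2.98 to 0 (Rpl3l), -1.61 to 1.14 (Rpl9), -1.45 to 0.52 (Rps19), -0.96 to 0.43 (Rps2), -3.39 to 1.02 (Rps27a) and -1.60 to 0.083 (Rps27l). The cause was not tested. No paired analysis was possible because the groups share only 1 replicate number, 3. Both share-of-reads scales were chosen after seeing the data. The depth of CNO 1 limits every member with few reads there.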
